A study of Mus musculus with 18 samples.

Results

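The genes described here are 55 genes of DNA replication and mitosis, read in the ileum of 18 mice on one-colour Agilent arrays. They were taken by name from lists of known cell-cycle genes, 31 for replication and 24 for mitosis, and a gene was represented by the brightest probe that carried its name. All 55 had such a probe, among 37074 gene names on the array and 21542 genes with a signal that could be tested. The cells came from the ileal lining, shaken off in a chelating buffer, and 1 array was run per mouse. Floxed mice (iPGC1afl/fl) carry loxP sites in both copies of Ppargc1a, the gene of the coactivator Pgc1α, and no Cre. In iPGC1a-/- mice the Vil1 (villin) promoter drives Cre in the intestinal epithelium, and only those cells are targeted. All mice had a C57BL6/J background, were killed after an overnight fast at Zeitgeber time 3, and had been put on diet at 8 weeks of age for 8 weeks. The groups were 6 floxed mice on CHOW (floxed chow), 6 floxed mice on HFD (floxed HFD) and 6 iPGC1a-/- mice on HFD, where HFD gave 42% of its kcal as fat with 0.2% cholesterol. Chow-fed iPGC1a-/- mice were not analysed here, and the effect of diet in that genotype was not measured.

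In the ileum, cells divide in the crypts, and their progeny stop dividing as they move onto the villi. Before S phase, licensing factors load the ring-shaped MCM helicase at replication origins, and polymerases, the sliding clamp and ligase then copy the DNA. Genes for this machinery are typically switched on by E2F factors at the entry to S phase. Mitotic genes follow in G2, when MuvB complexes with B-Myb and FoxM1 activate them through CHR elements, often with CCAAT boxes nearby. In resting cells the DREAM complex represses them through the same elements. Both sets are high in cycling cells and low in resting ones, so in bulk RNA fewer cycling cells and less RNA per cycling cell cannot be told apart.

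The promoter sequences are given first, because their motif words differ between the classes. Of the 55 genes, 44 had a promoter window of 300 bases (250 before and 50 after the start) in the RefSeq table for GRCm38.p6, 25 for replication with 29 windows and 19 for mitosis with 19 windows. The E2F words searched were TTTCGCGC, TTTGGCGC and TTTCCCGC, the CHR words TTTGAA and TTCGAA, and the CCAAT box was CCAAT, each on both strands. Shown are the 180 bases before the start for the 3 genes per class with the largest fall of signal on HFD among those whose stretch holds the word of the class, E2F for replication and CHR for mitosis. Capitals mark matches to any of the words, and a CCAAT box on the opposite strand appears as ATTGG. Overlapping matches merge into one run, as in Mcm5, where TTTCGCGC and the reverse of TTTGGCGC share bases.
Mcm7: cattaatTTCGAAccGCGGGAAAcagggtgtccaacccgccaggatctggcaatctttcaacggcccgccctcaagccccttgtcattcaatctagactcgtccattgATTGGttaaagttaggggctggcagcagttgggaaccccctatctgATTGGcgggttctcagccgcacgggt
Mcm5: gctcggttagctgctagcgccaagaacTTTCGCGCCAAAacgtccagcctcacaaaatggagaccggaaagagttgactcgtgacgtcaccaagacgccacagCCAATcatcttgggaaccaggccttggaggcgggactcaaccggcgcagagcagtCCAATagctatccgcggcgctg
Mcm6: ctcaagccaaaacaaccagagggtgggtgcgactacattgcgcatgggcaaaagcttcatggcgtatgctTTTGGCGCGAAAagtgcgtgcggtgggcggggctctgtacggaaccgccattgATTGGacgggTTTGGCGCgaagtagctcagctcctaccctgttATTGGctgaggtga
Ccnb2: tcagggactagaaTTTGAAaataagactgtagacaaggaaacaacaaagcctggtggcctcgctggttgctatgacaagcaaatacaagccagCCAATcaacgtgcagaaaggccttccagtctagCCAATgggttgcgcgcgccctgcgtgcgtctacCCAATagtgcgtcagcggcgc
Cdc20: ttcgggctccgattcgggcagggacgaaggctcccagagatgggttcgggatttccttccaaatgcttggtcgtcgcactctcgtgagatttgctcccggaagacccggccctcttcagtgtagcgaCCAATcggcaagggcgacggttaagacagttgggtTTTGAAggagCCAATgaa
Top2a: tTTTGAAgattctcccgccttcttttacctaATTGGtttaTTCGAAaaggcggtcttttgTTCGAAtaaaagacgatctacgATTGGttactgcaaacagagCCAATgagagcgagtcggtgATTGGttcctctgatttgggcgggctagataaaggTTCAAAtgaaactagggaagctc
The stretches lie at chr5:138171884-138172063 (minus strand) for Mcm7, chr8:75109329-75109508 (plus strand) for Mcm5 and chr1:128359706-128359885 (minus strand) for Mcm6. Those of the mitotic genes lie at chr9:70421555-70421734 (minus strand) for Ccnb2, chr4:118437344-118437523 (minus strand) for Cdc20 and chr11:99024190-99024369 (minus strand) for Top2a.

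An E2F word was present in 11 of the 29 replication windows (37.9%) and in 1 of the 19 mitosis windows (5.26%), while 1.84% of all 32851 windows in the table held one. CHR words had the opposite distribution. They were present in 14 of 19 mitosis windows (73.7%) and in 5 of 29 replication windows (17.2%), against 19.2% of all windows. The CCAAT box was present in 78.9% of mitosis windows, 51.7% of replication windows and 37.4% of all windows. A match is a description of the letters and does not show that a factor binds there. Within the replication genes, the 11 with an E2F word had a median diet log2 fold change of -0.39 and the 14 without one of -0.33. Within the mitosis genes, the 14 with a CHR word had a median of -0.55 and the 5 without one of -0.62. In both classes the genes with and without the word thus had similar medians.

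**Figure D1:**
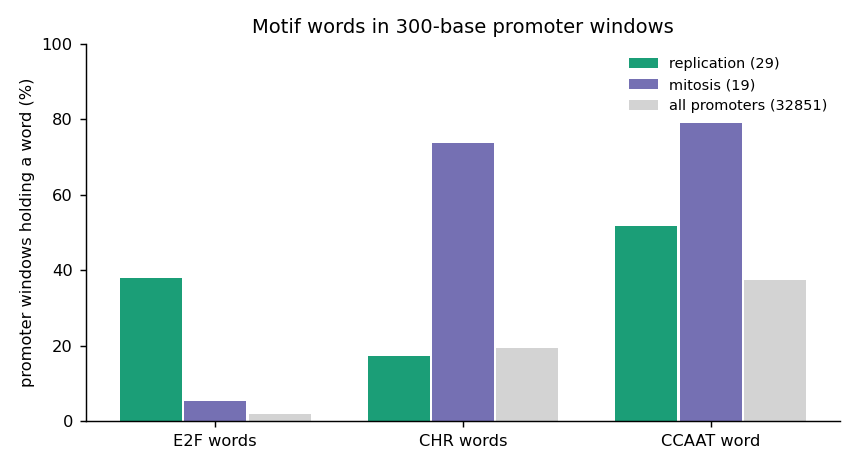
Share of promoter windows of 300 bases (vertical axis, %) that hold at least 1 match to the E2F, CHR or CCAAT words, for the replication genes (29 windows), the mitosis genes (19 windows) and all 32851 RefSeq windows. E2F words stand out in the replication bars (37.9%) and CHR words in the mitosis bars (73.7%).

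Spots well above background made up 56.3% to 62.3% of each array, every group had 2 arrays on each of the 3 slides, and 0 of the 55 genes were lost to the filter on dim probes. The genes were well above background on all 18 arrays, except Cdc45, which was so on 6 floxed chow, 5 floxed HFD and 5 iPGC1a-/- HFD arrays. Ppargc1a, the targeted gene, was no lower in arrays labelled iPGC1a-/- than in floxed HFD, with means of 11.67 and 11.38 on the log2 scale (difference 0.30, adjusted p = 0.573). Whether its probe lies within the deleted exons was not determined, and directions by genotype therefore follow the labels. By RT-qPCR, a measurement apart from these arrays, the paper reports the deletion in the intestinal tracts.

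The first comparison was HFD against chow in floxed mice. Of the 55 genes, 13 fell by more than 1.5-fold at an adjusted p of 0.05 or lower, and 0 rose. Of all tested genes, 5.20% passed this threshold downwards and 3.22% upwards. On the adjusted p alone, 31 of the 55 were lower and 0 higher, beside 14.2% and 10.4% of all tested genes. The fitted difference was negative for 53 of 55 genes, with a median log2 fold change of -0.46 (1.38-fold lower), while the median of all tested genes was 0.003. Without floxed chow replicate 4, floxed HFD replicate 2 or floxed HFD replicate 3, the number past both thresholds dropped to 6, 7 and 6.

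**Figure D2:**
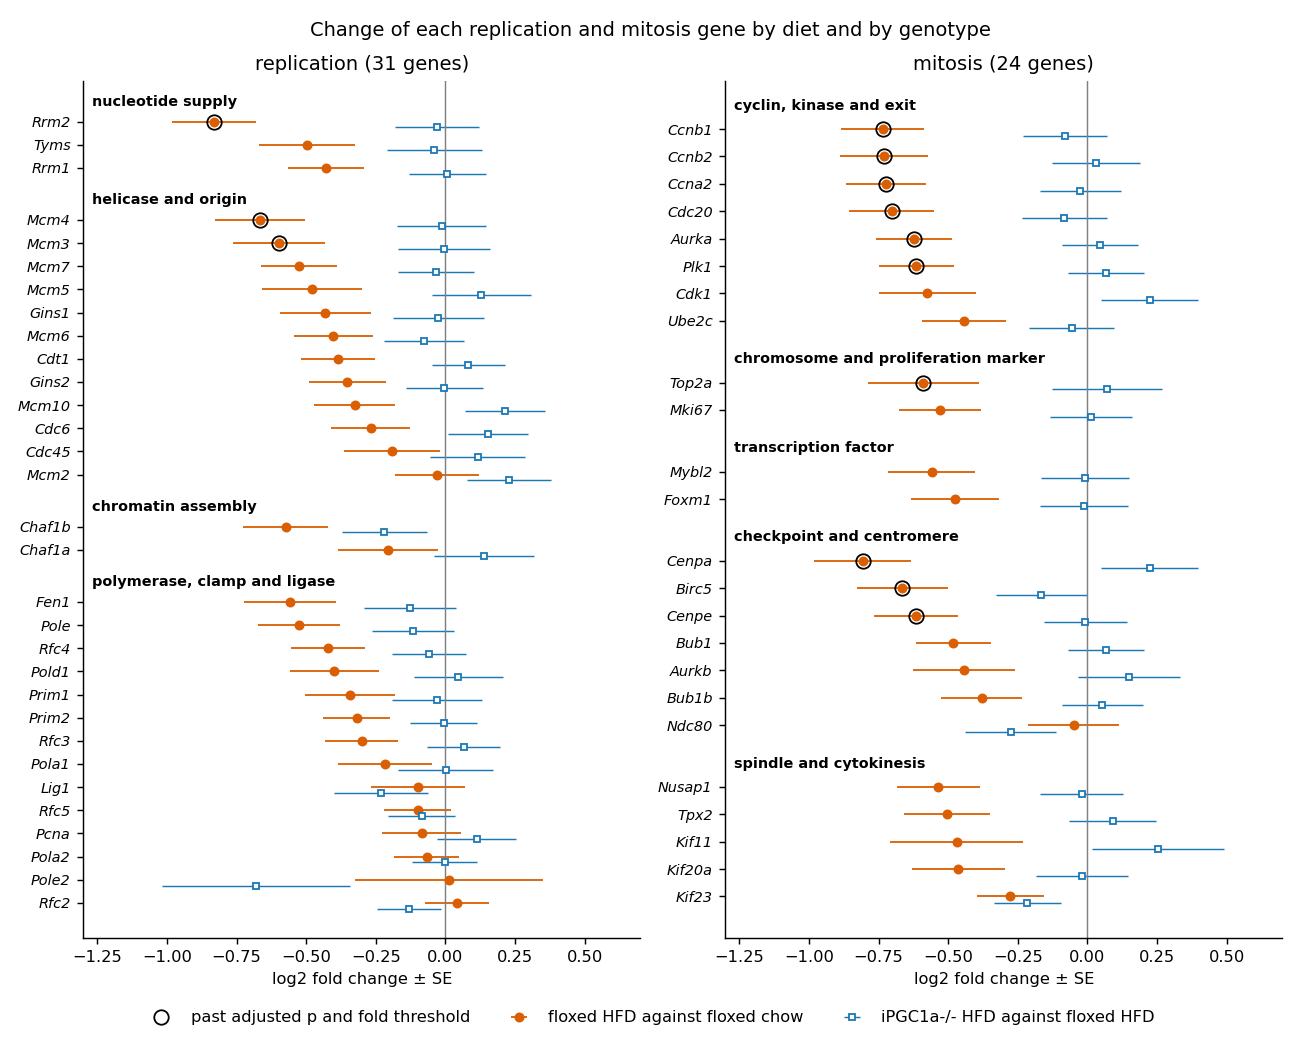
Log2 fold change with its standard error (horizontal axis) for the 31 replication genes (left) and 24 mitosis genes (right), grouped by role. Filled circles are floxed HFD against floxed chow, open squares iPGC1a-/- HFD against floxed HFD (6 mice per group), and rings mark the 13 genes past the adjusted p and fold thresholds. The circles lie left of 0 for 53 genes, and the squares lie around 0.

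Among the replication genes, the largest difference was that of Rrm2, the regulated subunit of ribonucleotide reductase, which makes deoxyribonucleotides. Its probe lies at chr12:25398824-25398883 on mm9, the build of the array files. Its log2 signal was 9.48 to 10.37 in floxed chow (median 10.02), 8.80 to 9.45 in floxed HFD (median 9.12) and 8.96 to 9.22 in iPGC1a-/- HFD (median 9.13). All 6 floxed HFD mice were below all 6 floxed chow mice, as were all iPGC1a-/- HFD mice. The log2 fold change on HFD was -0.83 ± 0.15 (SE), 1.78-fold lower, with an adjusted p of 0.000422. The other nucleotide-supply genes passed on the adjusted p alone: Rrm1, the large subunit, with -0.43 (adjusted p = 0.0293), and Tyms, thymidylate synthase, with -0.50 (adjusted p = 0.0417).

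The subunits of the MCM helicase differed in whether they passed the thresholds. Mcm4 spanned 9.78 to 10.73 in floxed chow (median 10.04), 8.91 to 9.93 in floxed HFD (median 9.49) and 9.26 to 9.59 in iPGC1a-/- HFD (median 9.46). Of the floxed HFD mice, 5 were below every chow mouse, and the fold change was -0.67 ± 0.16 (adjusted p = 0.00515). Mcm3 spanned 10.06 to 11.10 in floxed chow (median 10.47), 9.504 to 10.25 in floxed HFD (median 9.93) and 9.58 to 10.08 in iPGC1a-/- HFD (median 9.88), and fell by 0.60 ± 0.16 on the log2 scale (adjusted p = 0.0121). Both subunits thus passed both thresholds, although Mcm3, at 1.51-fold, did so only just. Mcm7 fell by 0.53 (adjusted p = 0.00824) and Mcm6 by 0.40 (adjusted p = 0.0455), under the fold threshold, while Mcm5, at -0.48, missed the adjusted p (0.0591).

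Mcm2 did not pass either threshold. It spanned 7.98 to 9.09 in floxed chow (median 8.37), 8.20 to 8.69 in floxed HFD (median 8.35) and 8.47 to 9.10 in iPGC1a-/- HFD (median 8.56). The floxed HFD values lay inside the chow range, and the log2 fold change was -0.03 with a 95% interval of -0.35 to 0.29 (adjusted p = 0.908). For Mcm4 the interval was -1.002 to -0.33, and the difference between the subunits was not tested. Of the origin factors, Cdt1, which brings MCM to origins, was lower on the adjusted p alone (-0.39, adjusted p = 0.0397). Its partner Cdc6 was at -0.27 (adjusted p = 0.186), the GINS subunits Gins1 and Gins2 at -0.43 and -0.35, and Cdc45, which joins them in the active helicase, at -0.19. Mcm10, which helps to start unwinding, was at -0.33 (adjusted p = 0.111). Over the 12 helicase and origin genes the median was -0.39, with 2 past both thresholds and 5 past the adjusted p. The shares of all tested genes were 5.20% and 14.2% downwards.

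The 14 polymerase, clamp and ligase genes had the median closest to 0 of the replication roles, -0.26. Beside 5.20% and 14.2% of all tested genes downwards, 0 passed both thresholds and 3 (21.4%) the adjusted p. These were Fen1, the flap nuclease of Okazaki fragments (-0.56 ± 0.17, adjusted p = 0.0186), Pole, the catalytic subunit of the leading-strand polymerase (-0.53, adjusted p = 0.0133), and Rfc4 of the clamp loader (-0.42, adjusted p = 0.0270). Fen1 lay between 10.23 and 11.47 in floxed chow (median 10.66), 9.94 and 10.47 in floxed HFD (median 10.20) and 9.65 and 10.30 in iPGC1a-/- HFD (median 10.103). Pcna, the sliding clamp and a common marker of proliferation, was among the genes that did not pass. It spanned 11.03 to 12.04 in floxed chow (median 11.59), 11.18 to 11.72 in floxed HFD (median 11.50) and 11.36 to 11.81 in iPGC1a-/- HFD (median 11.62). The 3 ranges overlapped throughout, and the log2 fold change was -0.09 with an interval of -0.38 to 0.21 (adjusted p = 0.705). The remaining genes of the group did not pass the adjusted p. They ran from Pold1, the catalytic subunit of the lagging-strand polymerase (-0.40), through the primase subunits Prim1 (-0.34) and Prim2 (-0.32), Rfc3 (-0.30), the polymerase alpha subunit Pola1 (-0.22), the ligase Lig1 (-0.10), Rfc5 (-0.10) and Pola2 (-0.07) to Pole2 (0.01) and Rfc2 (0.04), the last 2 being the only positive estimates among the 55 genes. Of the chromatin assembly factor that places histones behind the fork, the Chaf1b subunit passed on the adjusted p (-0.57 ± 0.15, adjusted p = 0.0101) and Chaf1a did not (-0.21, adjusted p = 0.438).

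**Figure D3:**
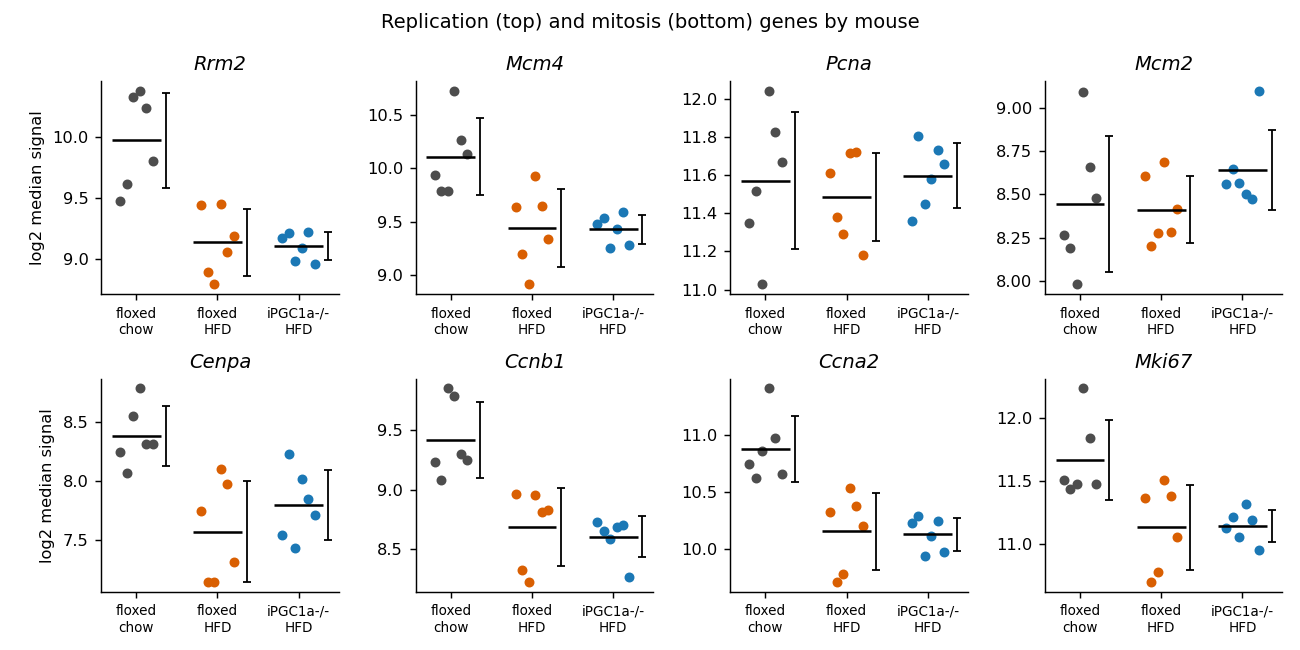
Log2 median signal (vertical axis, a separate scale in each panel) of 4 replication genes (top) and 4 mitosis genes (bottom) in the 3 groups. Points are mice (6 per group), long bars group means and whiskers 1 SD. Rrm2, Ccnb1 and Ccna2 have no overlap between floxed chow and floxed HFD, while Pcna and Mcm2 overlap throughout.

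Of the 8 genes grouped as cyclins, mitotic kinases and mitotic exit, 6 passed both thresholds and all 8 the adjusted p, with a median of -0.66. The shares of all tested genes were 5.20% and 14.2% downwards. Cdk1 and Ube2c were the 2 under the fold threshold. Ccnb1, cyclin B1, which with Cdk1 starts mitosis, was read by a probe at chr13:101548722-101548781 on mm9. It lay between 9.08 and 9.85 in floxed chow (median 9.27), 8.22 and 8.96 in floxed HFD (median 8.82) and 8.26 and 8.73 in iPGC1a-/- HFD (median 8.67). No floxed HFD mouse reached the lowest chow mouse, and the log2 fold change was -0.74 ± 0.15 (adjusted p = 0.00134). Ccna2, cyclin A2 of S and G2 phase, was at 10.62 to 11.41 in floxed chow (median 10.80), 9.71 to 10.53 in floxed HFD (median 10.26) and 9.94 to 10.29 in iPGC1a-/- HFD (median 10.17), also without overlap between floxed chow and either HFD group (-0.72 ± 0.14, adjusted p = 0.00107). Ccnb2, cyclin B2, fell by 0.73 ± 0.16 (adjusted p = 0.00214) and Cdc20, which activates the anaphase-promoting complex, by 0.70 ± 0.15 (adjusted p = 0.00226). For both, 5 of 6 floxed HFD mice were below every chow mouse. The mitotic kinases Aurka (-0.62, adjusted p = 0.00245) and Plk1 (-0.61, adjusted p = 0.00262) also passed both thresholds.

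Cdk1 itself spanned 7.17 to 7.79 in floxed chow (median 7.37), 6.47 to 7.36 in floxed HFD (median 6.87) and 6.61 to 7.55 in iPGC1a-/- HFD (median 7.12). Its log2 fold change of -0.58 ± 0.17 (adjusted p = 0.0216) was just under the 1.5-fold threshold, and 1 floxed HFD mouse lay inside the chow range. Ube2c, the ubiquitin-conjugating enzyme of the same complex, had -0.44 (adjusted p = 0.0410).

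At the centromere, Cenpa, the histone H3 variant that marks it, had the largest difference of the mitosis genes. Its log2 signal was 8.06 to 8.78 in floxed chow (median 8.32), 7.15 to 8.10 in floxed HFD (median 7.53) and 7.44 to 8.23 in iPGC1a-/- HFD (median 7.78). Of the floxed HFD mice, 5 were below every chow mouse, and the log2 fold change was -0.81 ± 0.17, 1.75-fold lower (adjusted p = 0.00205). Birc5 (survivin), a subunit of the chromosomal passenger complex, fell by 0.66 ± 0.16 (adjusted p = 0.00577), and Cenpe, a kinetochore motor, by 0.62 ± 0.15 (adjusted p = 0.00531). Aurkb, the kinase of the same complex as Birc5, was at -0.44 (adjusted p = 0.0871). The checkpoint kinase Bub1 was lower on the adjusted p alone (-0.48, adjusted p = 0.0142), and Bub1b was at -0.38 (adjusted p = 0.0636). Ndc80, which ties kinetochores to microtubules, was at -0.05 with an interval of -0.39 to 0.29.

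Of the 5 spindle and cytokinesis genes, 0 passed both thresholds and 3 the adjusted p, beside 5.20% and 14.2% of all tested genes downwards. The 3 were Nusap1 (-0.54) and Tpx2 (-0.50), which bundle and nucleate spindle microtubules, and the kinesin Kif20a (-0.46). The motors Kif11 (-0.47 ± 0.24) and Kif23 (-0.28 ± 0.12) did not pass. The proliferation marker Mki67, which coats mitotic chromosomes, lay between 11.44 and 12.23 in floxed chow (median 11.49), 10.70 and 11.51 in floxed HFD (median 11.21) and 10.96 and 11.32 in iPGC1a-/- HFD (median 11.16). Of the floxed HFD mice, 5 were below every chow mouse, and the log2 fold change was -0.53 ± 0.15 (adjusted p = 0.0132), under the fold threshold. Top2a, topoisomerase II alpha, fell by 0.59 ± 0.20 (adjusted p = 0.0373), 1.505-fold and thus barely past the threshold.

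The transcription factors of the mitotic programme differed by a similar amount. Foxm1 spanned 7.83 to 8.74 in floxed chow (median 8.15), 7.51 to 8.04 in floxed HFD (median 7.74) and 7.48 to 8.00 in iPGC1a-/- HFD (median 7.77), with a log2 fold change of -0.47 ± 0.16 (adjusted p = 0.0354). Mybl2, which encodes B-Myb, spanned 9.82 to 11.03, 9.58 to 9.91 and 9.42 to 10.098 in the same order (medians 10.20, 9.80 and 9.69), with -0.56 ± 0.16 (adjusted p = 0.0140). For both genes the ranges of floxed chow and floxed HFD overlapped, and neither gene passed the fold threshold.

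Set side by side in the diet comparison, the mitosis genes had the lower median. The median log2 fold change was -0.55 for the 24 mitosis genes and -0.35 for the 31 replication genes, a gap of -0.20. Past both thresholds were 10 of 24 mitosis genes (41.7%) and 3 of 31 replication genes (9.68%), beside 5.20% of all tested genes downwards. Past the adjusted p were 19 (79.2%) and 12 (38.7%), beside 14.2%. The estimate was negative for all 24 mitosis genes and for 29 of the replication genes. Of the 6 genes without overlap between floxed chow and floxed HFD, 5 were mitotic (Ccna2, Ccnb1, Aurka, Plk1 and Cenpe) and 1 was Rrm2. Among all tested genes, 5.30% had every floxed HFD array below every floxed chow array. Leaving the transcription factors Foxm1 and Mybl2 out of the mitosis class gave a median of -0.56. No test was made of the gap, since the genes of a class share the same mice and are not replicates.

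**Figure D4:**
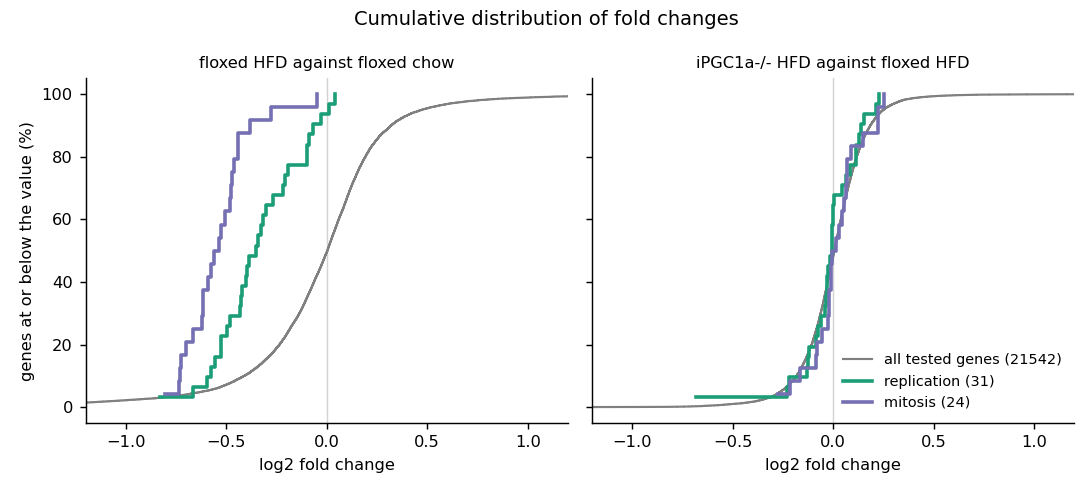
Cumulative share of genes (vertical axis, %) at or below a given log2 fold change (horizontal axis) for floxed HFD against floxed chow (left) and iPGC1a-/- HFD against floxed HFD (right). In grey are all 21542 tested genes, in green the 31 replication genes and in violet the 24 mitosis genes. On the left, the medians are 0.003, -0.35 and -0.55. On the right, the 3 curves lie together around 0.

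Mice of one group differed widely in these genes. For each mouse, the deviation of each gene from its mean over the 18 arrays was averaged over a class. For replication, floxed chow mice lay between -0.14 and 0.74 (mean 0.23 ± 0.32, SD, n = 6), floxed HFD mice between -0.36 and 0.14 (mean -0.11 ± 0.20) and iPGC1a-/- HFD mice between -0.25 and -0.02 (mean -0.13 ± 0.09). For mitosis, the ranges were 0.10 to 0.80 (mean 0.36 ± 0.26), -0.51 to 0.12 (mean -0.18 ± 0.28) and -0.35 to 0.00 (mean -0.17 ± 0.15). Floxed chow replicates 4 and 5 were highest in both classes, and floxed HFD replicates 2 and 3 lowest.

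The classes did not rank the mice identically. In floxed chow replicate 3 the replication mean was -0.14, the lowest of its group, while its mitosis mean was 0.25. The mitosis minus the replication mean ran from 0.00 to 0.38 in floxed chow, from -0.20 to 0.10 in floxed HFD and from -0.17 to 0.08 in iPGC1a-/- HFD. The number of the 55 genes above their median over the 18 arrays ran from 28 to 54 in floxed chow, 3 to 51 in floxed HFD and 4 to 26 in iPGC1a-/- HFD. Floxed HFD replicates 1, 4 and 5, with 42, 51 and 32, lay within the chow range, whereas replicates 2, 3 and 6, with 4, 3 and 10, were below all of them. Replicates 2, 3 and 6 also had the weakest arrays of their group, with 56.3%, 56.8% and 57.0% of spots well above background. On replicates 1, 4 and 5 the share was 59.6% to 61.7%, and the median signal was 52 on each, against 44, 41.5 and 39. A part of array signal in this split was not tested. The median SD of the 55 genes was 0.34 in floxed chow, 0.28 in floxed HFD and 0.19 in iPGC1a-/- HFD, while that of all tested genes was 0.18, 0.17 and 0.17.

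Within each of the 3 slides, with 2 arrays per group, floxed HFD was below floxed chow. The differences were -0.20, -0.46 and -0.36 for replication and -0.44, -0.67 and -0.51 for mitosis. By genotype they had no common sign, at 0.16, -0.08 and -0.14 for replication and 0.22, 0.03 and -0.21 for mitosis.

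**Figure D5:**
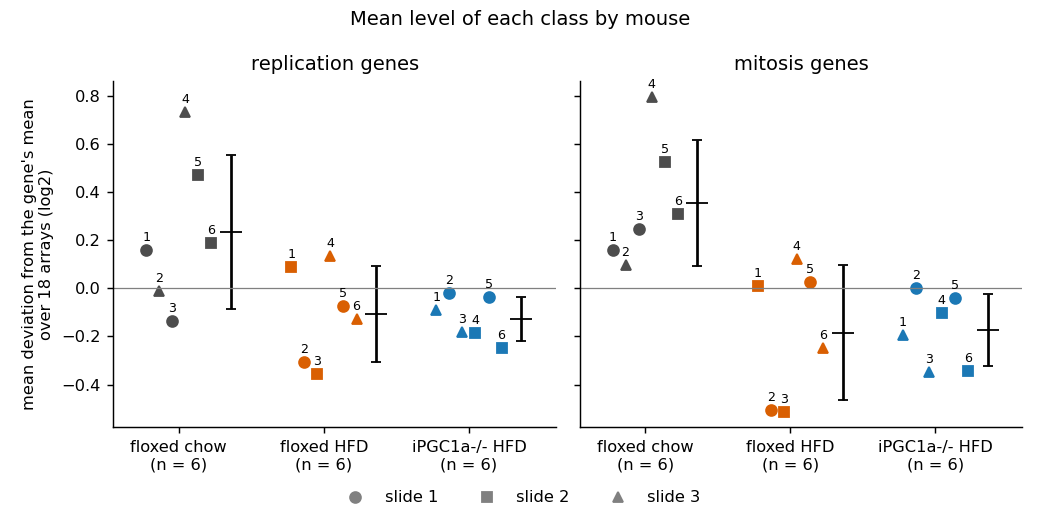
Mean deviation of the 31 replication genes (left) and the 24 mitosis genes (right) from their mean over 18 arrays, on the log2 scale (vertical axis), for each mouse. Numbers are replicates, shapes are slides, and bars give the group mean and SD (n = 6). Floxed chow replicates 4 and 5 are highest and floxed HFD replicates 2 and 3 lowest in both panels.

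The second comparison was by genotype on HFD. No replication or mitosis gene passed a threshold between the arrays labelled iPGC1a-/- and floxed HFD: 0 of 55 passed both thresholds in limma, 0 passed the adjusted p alone, and 0 had an unadjusted p of 0.05 or lower. Of all tested genes, 0.135% passed both thresholds, 0.227% the adjusted p and 9.29% the unadjusted p. The median log2 fold change was -0.01 for replication and 0.002 for mitosis, with 31 estimates below and 24 above 0. For 50 of the 55 genes the 95% interval lay within a 1.5-fold change in either direction, so larger differences were outside the intervals of those genes, and the smallest adjusted p was 0.538.

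That smallest value belonged to Pole2, a subunit of polymerase epsilon, whose estimate was the largest by genotype (-0.68 ± 0.34). It ranged from 7.63 to 8.98 in floxed chow (median 7.99), from 7.29 to 8.88 in floxed HFD (median 8.28) and from 6.49 to 8.86 in iPGC1a-/- HFD (median 7.39), so the groups overlapped over most of their range. The next replication genes by size were Lig1, the ligase that seals Okazaki fragments (-0.23 ± 0.17, adjusted p = 0.679), Mcm2 (0.23 ± 0.15, adjusted p = 0.645) and Chaf1b (-0.22 ± 0.15, adjusted p = 0.659). Of the mitosis genes, Ndc80 had -0.28 ± 0.16 (adjusted p = 0.600), Kif11, the motor that separates spindle poles, 0.25 ± 0.24 (adjusted p = 0.756), Cenpa 0.22 ± 0.17 (adjusted p = 0.697) and Cdk1 0.22 ± 0.17 (adjusted p = 0.698). Kif11 lay between 5.15 and 7.11 in floxed HFD (median 6.77) and between 6.62 and 6.98 in iPGC1a-/- HFD (median 6.77). The low end of the first range was 1 mouse, floxed HFD replicate 2, and without it the estimate was -0.03.

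Against floxed chow, the iPGC1a-/- HFD mice, which differ from them in both diet and genotype, had 12 genes lower past both thresholds, beside 6.86% of all tested genes, and 33 lower on the adjusted p alone, beside 20.0%. Of the 12, 6 were replication genes (Mcm3, Mcm4, Pole, Fen1, Rrm2 and Chaf1b) and 6 were mitosis genes (Ccna2, Ccnb1, Ccnb2, Cdc20, Birc5 and Cenpe). The median was -0.35 for replication and -0.52 for mitosis. The values were lower without overlap for 13 of 55 genes, beside 8.66% of all tested genes. Since the chow mice enter both this and the diet comparison, the 9 genes past both thresholds in each are not independent evidence. Without floxed chow replicate 4 the number was 7, and without iPGC1a-/- HFD replicate 2 it was 19.

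Genes of the same pathway outside the 55 were read from 4 further lists, of which 109 of 110 genes could be tested. In the diet comparison, 11 passed both thresholds, 9 of them downwards (8.26%) and 2 upwards. Of all tested genes, 5.20% passed downwards and 3.22% upwards. On the adjusted p alone, 44.95% of the 109 were lower, beside 14.2% of all tested genes. Of 33 other replication genes, 0 were lower and 1 higher past both, 11 were lower on the adjusted p alone, and the median was -0.31. Values of the 1 that was higher are not reported here. Asf1b, a histone chaperone, was at -0.54 (adjusted p = 0.0477).

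Of 46 other mitosis genes, 6 were lower past both thresholds, 28 were lower on the adjusted p alone, and the median was -0.44. The largest were Cdca3, an adaptor of mitotic entry (-0.72 ± 0.17, adjusted p = 0.00377), and Tacc3, a spindle protein (-0.71 ± 0.17, adjusted p = 0.00360). Chosen after its values were seen, Wee1, the kinase that holds Cdk1 inactive, was higher on the adjusted p alone (0.56 ± 0.12, adjusted p = 0.00134), with a range of 7.13 to 7.82 in floxed chow and 7.80 to 8.24 in floxed HFD. As among the 55 genes, the mitosis median was below the replication median.

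Of 23 genes of G1 and E2F control, 3 were lower and 1 higher past both thresholds. E2f2, an activator E2F, was at 11.19 to 11.92 in floxed chow (median 11.45), 10.03 to 10.77 in floxed HFD (median 10.57) and 10.25 to 10.43 in iPGC1a-/- HFD (median 10.33). All HFD mice were below all chow mice, with a log2 fold change of -0.996 ± 0.13 (adjusted p = 1.53e-05). Ccnd1, cyclin D1 of G1, spanned 10.69 to 12.75 in floxed chow (median 11.57), 10.45 to 11.13 in floxed HFD (median 10.63) and 10.57 to 11.12 in iPGC1a-/- HFD (median 10.68), with -0.91 ± 0.22 (adjusted p = 0.00529). The remaining pair were chosen after their values were seen: Myc, a growth regulator, fell by 0.79 ± 0.21 (adjusted p = 0.00874), and Rb1, which restrains E2F factors, rose by 0.63 ± 0.11 (adjusted p = 0.000355), from 10.06 to 10.65 in floxed chow to 10.74 to 11.17 in floxed HFD without overlap. Of the 7 cell-cycle inhibitors, 0 passed both thresholds. The largest differences there were Cdkn1c (p57), higher on the adjusted p alone (0.43 ± 0.11, adjusted p = 0.00545), and Cdkn2a, lower on the adjusted p alone (-0.42 ± 0.12, adjusted p = 0.0132). By genotype, 0 of the 109 genes passed both thresholds or the adjusted p in limma. An unadjusted p of 0.05 or lower was found for 10, a share close to the 9.29% of all tested genes.

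Since several cell types of the ileum divide, marker lists of the cell types were read beside the class values. Of 8 crypt stem cell markers, 0 passed both thresholds on HFD, and the median was -0.11. Beside the counts of each marker list stand 5.20% of all tested genes downwards and 3.22% upwards. The summed linear signal of the 8 was 5351 to 7721 in floxed chow, 4837 to 7648 in floxed HFD and 4891 to 6606 in iPGC1a-/- HFD. Averaged per mouse like the classes, their deviations were -0.20, -0.25 and -0.09 in floxed HFD replicates 2, 3 and 6. In replicates 1, 4 and 5 they were 0.22, 0.32 and 0.10. Floxed chow mice lay between -0.10 and 0.23, with replicates 4 and 5 highest. A relation to the class values was not tested. Lgr5, which defines crypt stem cells, had the highest estimate of the 8, 0.30 ± 0.16 (adjusted p = 0.194), and 5 were negative. Axin2, a Wnt target, was the 1 marker past the adjusted p, downwards (-0.40, adjusted p = 0.0454). T cell and intraepithelial lymphocyte markers were lower for 9 of 9 genes (median -1.68), with sums of 14224 to 50804, 6122 to 10804 and 7778 to 13169. Cd3e, their defining marker, was at -0.66 (adjusted p = 0.00543), and Jchain of plasma cells was at -3.23. B cell markers were lower past both thresholds for 5 of 8 (sums 1349 to 4334, 824 to 1888 and 935 to 1707) and plasma cell markers for 3 of 5 (sums 15298 to 22271, 12164 to 14445 and 11970 to 15749). A sum is weighted towards the brightest markers, and the single plasma cell markers ran from -3.23 to -0.26. Germinal centre markers, of rapidly dividing B cells, had 0 of 6 past both thresholds, and their sums were 1756 to 2954, 2042 to 2687 and 2240 to 3246. Among the lymphocyte markers, S1pr2 was well above background on 0 floxed HFD arrays, Fcer2a and Mzb1 on 2 and Ms4a1 and Mybl1 on 3, and each of them on all 6 chow arrays. Each of these met the filter on floxed chow and not on floxed HFD arrays, so the filter itself favoured a lower signal on HFD. The B cell, plasma cell and germinal centre counts, which hold them, are limited by this.

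Goblet cell markers were lower past both thresholds for 5 of 7 (sums 430020 to 569765 in floxed chow and 188063 to 463012 in floxed HFD), and Muc2, their main mucin, was at -0.78 (adjusted p = 0.00377). The shares of all tested genes were 5.20% downwards and 3.22% upwards. Enterocyte markers were higher for 3 and lower for 1 of 11, with sums of 841381 to 1024417 in floxed chow and 956425 to 1122588 in floxed HFD, and Alpi, the brush-border alkaline phosphatase, was at 0.90 (adjusted p = 0.000189). Past both thresholds downwards were also 2 of 6 Paneth cell, 1 of 7 enteroendocrine, 1 of 2 tuft cell and 1 of 5 macrophage and dendritic cell markers, and 0 of 5 stroma and muscle markers. The other 4 Paneth cell estimates were positive, and the median of that list was 0.003. The stroma and muscle markers were high in floxed HFD replicate 1 (mean deviation 1.16, group median -0.10). Markers of lymphocytes, goblet cells and enterocytes thus differed by diet beside the replication and mitosis genes, and their part in the difference of those genes was not tested. Past both thresholds by genotype were 0 genes of any marker list.

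The brightest probe stood for each gene, and 26 of the 55 genes had further probes that passed the filter, 39 in all. Of these, 35 were lower on HFD, with a median of -0.38, and 20 passed the adjusted p, 19 of them downwards. For Ccnb1 the 3 further probes had -0.50, -0.61 and -0.36, all past the adjusted p, and for Mcm3 they had -0.61, -0.46 and -0.52. Some genes disagreed between probes. Rfc5, a clamp loader subunit, was at -0.10 by its brightest probe and at -2.54 (adjusted p = 8.43e-07) and 0.23 by the others. Pole2 was at 0.01 by its brightest probe and at -0.50 (adjusted p = 0.00772) by the dimmer one, whose genotype estimate was 0.15 (adjusted p = 0.727). Kif23, a kinesin of cytokinesis, ran from -0.42 to 0.35 over its 4 probes. By genotype 0 further probes passed the adjusted p.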

How the data were processed

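Total RNA of ileal cells was labelled with Cy3 and hybridised to Agilent SurePrint mouse arrays, 1 per mouse. The authors deposited the spot intensity values of Agilent Feature Extraction 10.10.1.1 (version from the submitters' processing notes) without normalization between arrays, and a table of log2 values. Their correction for washing bath and labelling serial could not be repeated, since the labels used here do not name these batches. Columns of values without a sample numbered 0.

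Control and outlier spots were left out, and spots of 1 probe averaged. The filter kept 32726 of 56605 probes, those well above background on 5 or more of the 6 arrays in some group. Median signals on the log2 scale were then brought together by a reimplementation of qsmooth (window 0.05), which lets the groups differ in their overall distribution. limma 3.58.1 (lmFit, eBayes) in R 4.3.3 fitted the 3 groups in 1 model, and p-values were adjusted after Benjamini and Hochberg over all kept probes. Thresholds were an adjusted p of 0.05 and a fold change of 1.5. Intervals are 95% and limma's own. Probe coordinates are those of the array files (mm9). Figures were drawn with matplotlib 3.10.9.

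Values were given for the 6 genes per class with the largest diet change and the 4 with the largest genotype change, for Mki67, Top2a, Pcna, Mcm2, Mcm6, Ccnb1, Cdk1, Foxm1 and Mybl2, and for the 2 with the largest diet change in each pathway list, leaving out some single genes that are not reported here. Further genes are named in counts and as examples of their role. Genes and lists were chosen with earlier results of these data known. The labels call the mice separate samples, and p-values set a group difference against the spread between mice, estimated jointly over the 3 groups. The fit was tested on simulated arrays. Precision is limited by the number of arrays. The median standard error of the diet log2 fold change was 0.105 over all tested genes. For the replication and mitosis genes it was larger throughout, from 0.115 (Rfc2) to 0.338 (Pole2). Alternatives were other signals, scalings, filters, variances, blocks and probe rules, and each array left out.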

Additional observations from a re-analysis of the deposited data

Results flagged for a closer look

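Over 78 groups of 6 mice (24 named genes and the 2 class means in 3 groups), 4 had 1 mouse far from the rest, and chance alone marks about 1 in 20 groups. Kif11 in floxed HFD replicate 2 was at 5.15, while the other mice of the group lay between 6.56 and 7.11. Lig1 in floxed HFD replicate 6 was at 11.55, above 10.78 to 11.04. In iPGC1a-/- HFD replicate 6, Mcm2 was at 9.10, above 8.47 to 8.65, and Ccnb1 at 8.26, below 8.59 to 8.73.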

How the results depend on the processing

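The direction of the diet difference held for both classes under every alternative tried, and the class medians moved by less than the spread between mice, from -0.39 to -0.30 for replication and -0.57 to -0.50 for mitosis over 13 processing alternatives. The gap between the classes stayed between -0.21 and -0.17 over 14. With 1 array left out it ran from -0.215 (without floxed HFD replicate 5) to -0.149 (without floxed chow replicate 3). The number of genes past both thresholds for diet was 7 after scaling median signals to their 75th percentile, and 31 without a fold threshold. With that scaling the median diet log2 fold change of all kept probes was 0.073, against 0.001 in the main fit. The cause of the lower number was not tested. Against floxed chow, iPGC1a-/- HFD had 33 genes without a fold threshold, and the pathway genes numbered 54 there against 11. Leaving out 1 array gave 6 to 19 genes for diet (13 with all), 7 to 19 for iPGC1a-/- HFD against floxed chow (12 with all), and 19 to 38 on the adjusted p for diet (31 with all). The pathway genes gave 7 to 17, with 7 without floxed chow replicate 4 and 17 without floxed chow replicate 3 or floxed HFD replicate 4. By genotype the number was 0 under all 33 alternatives. With 1 array left out, Mcm2 ranged from -0.12 to 0.10 for diet, turning positive without floxed chow replicate 4 (0.10), floxed chow replicate 5 (0.01) or floxed HFD replicate 2 (0.01). Pcna turned from -0.09 to 0.00034 with the processed signal and ranged from -0.20 to 0.008 (without floxed chow replicate 4), and Kif11 ranged from -0.027 (without floxed HFD replicate 2) to 0.37 by genotype. None of these values passed a threshold. Top2a, at 1.505-fold, lost its place past both thresholds under 9 of 15 processing alternatives, and in 6 of the 18 fits that omit an array. Among the other named genes the numbers were 5 and 4 for Mcm3, 2 and 3 for Birc5, 1 and 0 for Ccnb1 and 0 and 2 for Mcm4. By genotype, the estimates nearest 0 with 1 array left out were -0.12 for Lig1 (without floxed HFD replicate 6), -0.14 for Chaf1b (floxed HFD replicate 1), and 0.14 for Mcm2, 0.13 for Cdk1 and 0.14 for Cenpa (iPGC1a-/- HFD replicates 6, 5 and 2). Same-numbered mice of different groups correlated at -0.23 to 0.35 (median 0.11), with 9 of 18 pairs above 0.1. Whether replicate numbers pair the mice was not tested. With the replicate block, 13 genes passed both thresholds for diet and 38 the adjusted p. The filter that required all arrays left 54 of the 55 genes with a value. Signal near background understates fold changes, which concerns Cdc45 most.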
